A study of Canis lupus familiaris with 7 samples.

Results

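The ErbB receptors and their ligands were taken by symbol from a table of 24580 genes: the 4 receptors *EGFR*, *ERBB2*, *ERBB3* and *ERBB4*, and 6 ligands, *EGF*, *TGFA*, *AREG*, *EREG*, *BTC* and *HBEGF*. Of these 10 genes, 9 had a row. *AREG* had no row under its symbol and is not analysed here. RNAseq had been performed on bulk tissue from dogs, 3 osteosarcoma (OSA) tumor samples (T1, T3 and T10) and 4 samples of bone that looked free of tumor and lay next to one (N1, N3, N8 and N9), all removed at amputation or just after euthanasia. The labels give no breed, sex, age, drug treatment or skeletal site, and although the protocol speaks of matched adjacent bone, nothing in the labels ties a tumor to a bone sample, so whether samples with the same number came from 1 dog is not given. The p-values therefore measure only the spread between these samples. Because each sample was a piece of mixed tissue, fewer cells of a type and less RNA per cell cannot be told apart.

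ErbB receptors are tyrosine kinases of the cell surface that work in pairs. Ligands of the EGF family are made as membrane-bound precursors, are cut free by proteases such as ADAM17, and on binding bring receptors together, which switches on the RAS-ERK, PI3K-AKT and STAT routes. ERBB2 has no known soluble ligand and acts as a partner for the others, ERBB3 has a weak kinase and signals through its partner, and in bone EGFR signalling is known for its part in the growth of osteoblast precursors.

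Levels are the authors' FPKM, fragments scaled by transcript length and by library size, so genes can be compared within a sample. How the authors normalized between libraries is not given in the sources used here, and the FPKM of all genes summed to between 539648 in N1 and 1752340 in N8, so that a difference in FPKM between samples also carries that scaling. The labels state a minimum number of reads that every sample reached, but not the depth of each, which was therefore read relative to N1, and ran from 0.544 in N8 to 1.44 in T10. The tissue labels were checked with marker genes. The defining osteoblast marker *RUNX2* was present in every sample, at 6.22 to 142 FPKM in non-tumor bone and 45.5 to 130 FPKM in tumor, but the list as a whole was uneven. Summed over 9 osteoblast genes, N1, N3, N8 and N9 held 7471, 1723, 162 and 504 FPKM, and T1, T3 and T10 held 12761, 1962 and 3250 FPKM. *SP7*, another osteoblast marker, named after its values were seen, was at 0.0833 FPKM in N8, 0.702 FPKM in N9 and 0.991 FPKM in T3, against 99.4 FPKM in N1 and 104 FPKM in T1. The non-tumor samples differed widely in other tissues. Summed over 14 muscle genes, N8 reached 100067 FPKM and N9 72103 FPKM (*CKM* and *MYH1* were listed at 0 in N9, and over the other 12 genes N8 held 62995 FPKM, below N9), against 1428 FPKM in N3, 84.8 FPKM in N1 and 6.59 to 15.0 FPKM in tumor. Summed over 8 granulocyte genes, N3 and N8 held 57678 and 64863 FPKM, against 67.5 to 1990 FPKM in the other samples. N1, labelled as bone that looked non-malignant, was set apart from its group. Over 13507 genes its values correlated with those of T1 at r = 0.917, the highest of the 21 pairs of samples, with those of T3 and T10 at r = 0.730 to 0.753, and with those of the other non-tumor samples at r = 0.572 to 0.670. Whether N1 held tumor tissue or carries the wrong label was not tested. It was kept in the non-tumor group as labelled, and results that rest on it are given with and without it.

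For each gene, the difference was estimated with limma on log2(FPKM + 1), a scale on which the change of a low gene is understated. Of the 9 genes, 6 averaged 1 FPKM or more over the 7 samples and were tested, with 13507 genes in the fit. A gene passed the threshold when its log2 fold change was 1 or more in size and its unadjusted p was under 0.05. None of the 6 passed it, while 926 of all genes tested did, or 6.86% (443 higher and 483 lower in tumor, a split that moved to 271 higher and 493 lower when every sample was rescaled to the same FPKM sum, and to 519 higher and 389 lower with quantile normalization). No gene in the whole fit had an adjusted p under 0.05 in limma, although 927 had an unadjusted p below that limit. The differences among the 6 genes ran from −1.87 for *EGF* to 1.33 for *EREG*, against a median of −0.02 over all genes tested. *EREG* was among the 6 through T3 alone, where it stood at 16.8 FPKM. Each gene was also put through a two-sided exact permutation test over the 35 assignments of 7 samples to 4 and 3, whose smallest possible p is 0.0571. Over the 9 genes the lowest adjusted value of this permutation test was 0.343.

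**Figure D1:**
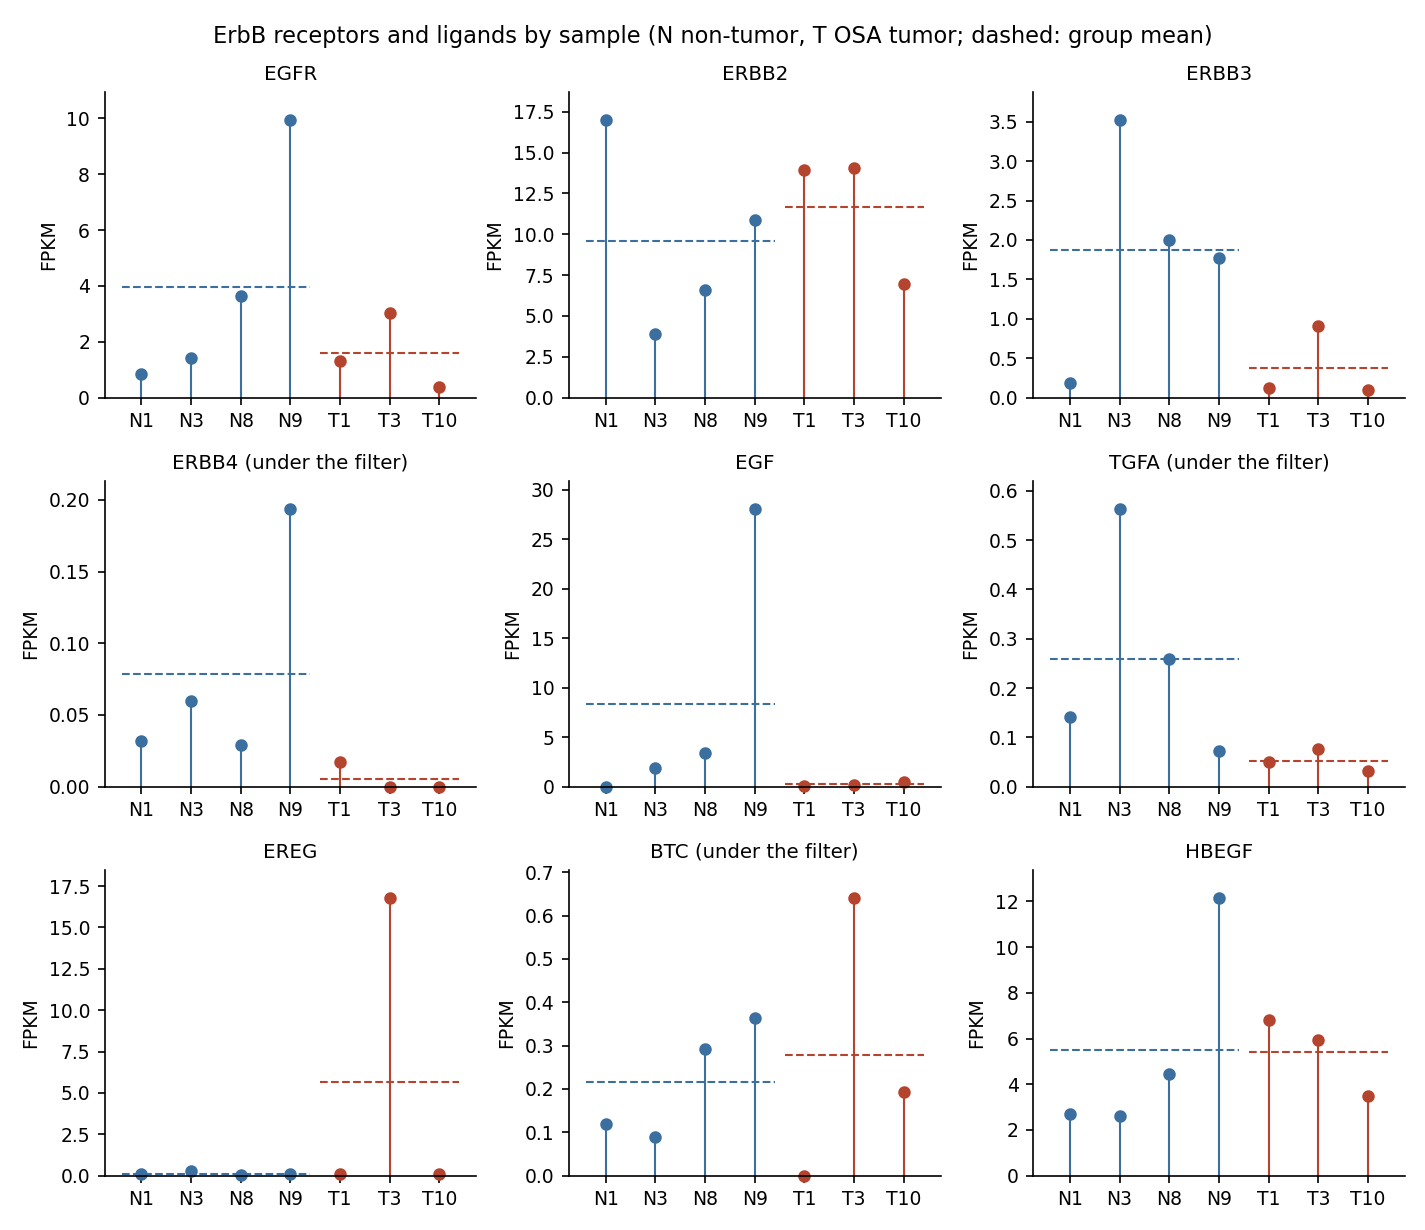
FPKM of the 9 matched ErbB receptors and ligands in each sample, 1 panel per gene with its own linear axis from 0; points are samples (blue non-tumor, red OSA tumor), dashed lines are group means, and genes under the filter had a mean below 1 FPKM. *EGF* stands at 28.1 FPKM in N9 and *EREG* at 16.8 FPKM in T3, while *ERBB2* is spread over both groups.

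*ERBB2* was the highest receptor in 7 of 7 samples. Its gene (ENSCAFG00000016351, CanFam3.1, chr9:22757524-22785561) has an interval that overlaps that of 1 other listed gene, *C17ORF37*. In non-tumor bone it measured 17.0 FPKM in N1, 3.87 FPKM in N3, 6.60 FPKM in N8 and 10.9 FPKM in N9. In tumor it measured 13.9 FPKM in T1, 14.0 FPKM in T3 and 6.96 FPKM in T10. The highest and the lowest values were both in non-tumor bone, and the tumor range lay within the non-tumor range. The means were 9.58 ± 5.73 FPKM (SD, n = 4) and 11.6 ± 4.06 FPKM (SD, n = 3). The difference of 0.36 (SE 0.56) had a 95% interval from −0.90 to 1.63 and an adjusted p of 0.893 in limma, with an exact permutation p of 0.514. That interval holds both a fall of almost 1 and a rise of more than 1 on the log2 scale. Leaving out single samples moved the difference from 0.046 without N3 to 0.68 without N1, with 0.67 without T10, and it did not pass in any of these fits.

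*EGFR*, the receptor that binds EGF, TGFA and AREG (ENSCAFG00000003465, chr18:5983668-6041628), was lower than *ERBB2* in every sample. It measured 0.859 FPKM in N1, 1.41 FPKM in N3, 3.63 FPKM in N8 and 9.95 FPKM in N9. The tumor values were 1.31 FPKM in T1, 3.05 FPKM in T3 and 0.387 FPKM in T10. The groups overlapped, and 1 sample in each carried most of the signal: N9 held 62.8% of the non-tumor sum and T3 64.2% of the tumor sum. N8 and N9, the highest for *EGFR*, were also the samples with the most muscle RNA, and N9 had the highest endothelial level as well, 323 FPKM summed over 6 genes, against 67.2 to 113 FPKM in the other non-tumor samples and 20.4 to 88.7 FPKM in tumor. The part of muscle and endothelium in the *EGFR* level was not tested. The means were 3.96 ± 4.17 FPKM (SD, n = 4) and 1.58 ± 1.35 FPKM (SD, n = 3). The difference of −0.72 (SE 0.71) had an interval from −2.33 to 0.88 and an adjusted p of 0.812 in limma, with an exact permutation p of 0.4. It was −0.23 without N9, −0.34 without T10, −1.08 without N1 and −1.12 without T3, and did not pass in any of these fits. Its sign turned without N8 and N9 together, to 0.15, and with the sample number as a fixed replicate block, to 0.53.

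*ERBB3* (ENSCAFG00000000097, chr10:412921-423604), a neuregulin receptor, was graded over the samples, with T3 between the high and the low values and N1 among the low ones. In non-tumor bone it measured 3.52 FPKM in N3, 2.01 FPKM in N8 and 1.77 FPKM in N9, but 0.183 FPKM in N1. Tumor values were 0.117 FPKM in T1, 0.911 FPKM in T3 and 0.101 FPKM in T10. All 3 tumors lay below N3, N8 and N9, and N1 lay among the tumors. T3 held 80.7% of the tumor sum. The means were 1.87 ± 1.37 FPKM (SD, n = 4) and 0.376 ± 0.463 FPKM (SD, n = 3). The difference of −0.96 (SE 0.60) had an interval from −2.31 to 0.39 and an adjusted p of 0.719 in limma, with an exact permutation p of 0.114. Without N1 it was −1.33 with an unadjusted p of 0.0292 and an adjusted p of 0.278 in limma, which passes the threshold. It was −0.69 without N3, −0.66 with the sample number as a fixed replicate block and −0.80 without N8 and N9 together, not past it.

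*ERBB4* (ENSCAFG00000023258, chr37:19037510-19723544), the other neuregulin receptor, was close to absent and was not tested by limma. It measured 0.0320 FPKM in N1, 0.0596 FPKM in N3, 0.0293 FPKM in N8 and 0.194 FPKM in N9. It measured 0.0170 FPKM in T1 and was listed at 0 in T3 and T10. The groups did not overlap, as for 5.85% of all genes tested, and *ERBB4* alone among the 9 genes reached the smallest exact permutation p, 0.0571. The reads behind this were few. In the smallest whole numbers that fit the values, the levels stood for 2, 5, 1 and 8 fragments in N1, N3, N8 and N9, and for 1, 0 and 0 fragments in T1, T3 and T10. A count of 0 allows up to 3 fragments, which is 0.0384 FPKM in T3 and 0.0330 FPKM in T10, above the levels of N1 and N8. With these smallest whole numbers, a difference was thus not detectable outside N3 and N9. The true number of fragments could be a multiple of the one given, which would lower these limits. Such limits cover counting error alone, and a listed 0 can also be a failed estimate.

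Among the ligands, *HBEGF* (ENSCAFG00000005749, chr2:35551228-35563354), a heparin-binding ligand of EGFR and ERBB4, was present in every sample. It measured 2.69 FPKM in N1, 2.62 FPKM in N3, 4.45 FPKM in N8 and 12.2 FPKM in N9. The tumors were at 6.83 FPKM in T1, 5.93 FPKM in T3 and 3.47 FPKM in T10. All 3 tumors were above N1 and N3 and below N9, so that the groups overlapped. The highest level was again in N9, the sample highest in endothelial and, with N8, high in muscle markers, whose part in it was not tested. The means were close, 5.48 ± 4.53 FPKM (SD, n = 4) and 5.41 ± 1.74 FPKM (SD, n = 3). The difference of 0.17 (SE 0.58) had an interval from −1.14 to 1.47 and an adjusted p of 0.958 in limma, with an exact permutation p of 0.8. It changed sign when N1 or N3 was left out, and was 0.58 without N9. In both same-numbered pairs the tumor was the higher sample, and with the sample number as a fixed replicate block the difference was 1.01, with an unadjusted p of 0.123 in limma.

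*EGF* (ENSCAFG00000011532, chr32:30074079-30168686), the founding ligand of the family, had the widest non-tumor range in FPKM of the 9 genes. It measured 28.1 FPKM in N9, 3.45 FPKM in N8 and 1.89 FPKM in N3, but 0.0101 FPKM in N1. In tumor it measured 0.0362 FPKM in T1, 0.145 FPKM in T3 and 0.492 FPKM in T10. As for *ERBB3*, all 3 tumors lay below N3, N8 and N9, whereas N1 lay below every tumor. The means were 8.36 ± 13.2 FPKM (SD, n = 4) and 0.225 ± 0.238 FPKM (SD, n = 3), and N9 alone held 84.0% of the non-tumor sum. The difference of −1.87 (SE 0.99) had an interval from −4.09 to 0.35 and an adjusted p of 0.693 in limma, with an exact permutation p of 0.229. It was −2.57 without N1, with an unadjusted p of 0.0151 and an adjusted p of 0.226 in limma, past the threshold, and −0.96 without N9, not past it. It was −0.50 without N8 and N9 together and −0.65 with the sample number as a fixed replicate block, a fit of samples 1 and 3 alone. N9 was the sample with the highest endothelial sum, given above, and with N8 it held the high muscle sums. N1 also had the lowest summed muscle, adipocyte, erythroid and granulocyte markers of the non-tumor samples, and the part of these tissues in the *EGF* and *ERBB3* levels was not tested.

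With N1 left out, *EGF* and *ERBB3* were the 2 of 6 tested receptors and ligands past the threshold, against 14.8% of all genes tested in that fit. N1 was singled out after its values were seen.

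*EREG* (ENSCAFG00000031443, chr13:62873764-62880508), or epiregulin, a ligand of EGFR and ERBB4, was high in a single tumor. It measured 16.8 FPKM in T3, against 0.103 FPKM in T1 and 0.112 FPKM in T10. Non-tumor bone held 0.0808 FPKM in N1, 0.253 FPKM in N3, 0.0296 FPKM in N8 and 0.0980 FPKM in N9. T3 stood 162 times above the lowest tumor and held 98.7% of the tumor sum, and the other 2 tumors lay inside the non-tumor range. In the smallest whole numbers that fit the low values, T3 held about 1291 fragments and the other samples 1 to 21. The means were 0.115 ± 0.096 FPKM (SD, n = 4) and 5.67 ± 9.63 FPKM (SD, n = 3). The difference of 1.33 (SE 0.94) had an interval from −0.79 to 3.45 and an adjusted p of 0.741 in limma, with an exact permutation p of 0.343. *EREG* had passed the filter through T3 alone, since every other sample was under 1 FPKM. Without T3 the difference was −0.01.

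T3 was also the sample with the highest summed level of 11 epithelial genes, 279 FPKM, against 3.82 and 8.45 FPKM in the other tumors and 0.981 to 27.9 FPKM in non-tumor bone. Of the 11 genes, 6 had their highest level in T3. Most of the sum was the keratin gene *KRT15*, at 212 FPKM, with *KRT19* at 33.4 FPKM, *CDH1* at 19.2 FPKM, *ESRP1* at 7.13 FPKM and *KRT5* at 3.28 FPKM, all named after their values were seen. *CLDN4*, at 0.106 FPKM in T3 against 1.77 FPKM in T1, *CLDN7*, at 0.210 FPKM against 4.78 FPKM in T10, and *GRHL2*, at 0.226 FPKM against 0.465 FPKM in T10, were not highest there. The defining marker *EPCAM* was at 2.92 FPKM in T3 and 5.15 FPKM in N3. Of the 11 genes, 1 was at 0 in T3, against 3 to 8 in the other samples. The part of epithelial cells in the *EREG* level was not tested.

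*TGFA* (ENSCAFG00000003366, chr10:68915629-68966459), a ligand of EGFR, and *BTC* (ENSCAFG00000009013, chr15:64133094-64160884), or betacellulin, which binds EGFR and ERBB4, were under the filter. *TGFA* measured 0.140 FPKM in N1, 0.564 FPKM in N3, 0.259 FPKM in N8 and 0.0727 FPKM in N9, against 0.0499 FPKM in T1, 0.0760 FPKM in T3 and 0.0328 FPKM in T10. Only N9 among the non-tumor samples fell within the tumor range, at 1 fragment, and the exact permutation p was 0.114. Apart from N3, with 16 fragments, the *TGFA* levels rested on 1 to 3 fragments per sample in the smallest whole numbers that fit. *BTC* measured 0.119 FPKM in N1, 0.0891 FPKM in N3, 0.292 FPKM in N8 and 0.363 FPKM in N9, with 0.641 FPKM in T3, 0.193 FPKM in T10 and a listed 0 in T1. The *BTC* groups overlapped from end to end, with an exact permutation p of 0.857, and T3 held 76.9% of the tumor sum from 20 fragments. With these smallest whole numbers, the 0 in T1 allows up to 0.127 FPKM, above the levels of N1 and N3.

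**Figure D2:**
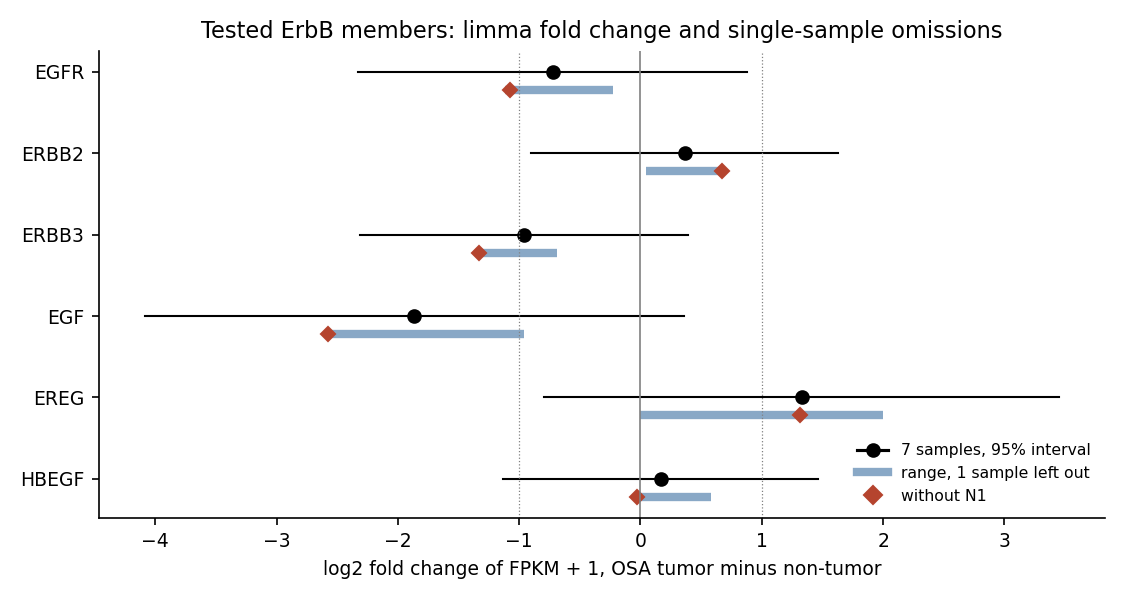
Log2 fold change of FPKM + 1 (tumor minus non-tumor, horizontal axis) for the 6 tested genes, with the limma estimate and its 95% interval in black, the range over 7 fits that each leave out 1 sample as a blue bar, and the value without N1 as a red diamond. Every interval crosses 0; *EGF* moves from −1.87 to −2.57 and *ERBB3* from −0.96 to −1.33 without N1.

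The receptors were also compared with each other within each sample. The ratio of *ERBB2* to *EGFR* FPKM in N1, N3, N8 and N9 was 19.8, 2.74, 1.82 and 1.09, and in T1, T3 and T10 it was 10.7, 4.61 and 18.0. All 3 tumors had a higher ratio than N3, N8 and N9, and N1 had the highest of all. In N9 the receptors were close to level. As a share of the summed receptor FPKM, *ERBB2* made up 94.1%, 43.6%, 53.8% and 47.7% of N1, N3, N8 and N9, respectively. It made up 90.6%, 78.0% and 93.4% of T1, T3 and T10. N3, N8 and N9 thus lay between 43.6% and 53.8% and the other 4 samples between 78.0% and 94.1%, with N1 above every tumor. The mean share was 59.8 ± 23.2% (SD, n = 4) in non-tumor and 87.4 ± 8.22% (SD, n = 3) in tumor, and the difference of 27.6 percentage points had an exact permutation p of 0.229 (adjusted over 9 shares, 0.411). Leaving out single samples moved this difference between 22.2 and 39.0 points, the latter without N1. The *ERBB3* shares of N3, N8 and N9 were 39.8%, 16.4% and 7.79%, against at most 5.06% in the other samples. The receptor sum itself showed no such split, at 8.86 to 22.8 FPKM in non-tumor and 7.44 to 18.0 FPKM in tumor, with an exact permutation p of 0.686.

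The leading ligand changed from sample to sample. Among the 5 matched ligands *HBEGF* was the highest in 5 of 7 samples, with *EGF* in its place in N9 and *EREG* in T3. Of the summed ligand FPKM in N1, N3, N8 and N9, *HBEGF* made up 88.5%, 48.3%, 52.5% and 29.8%, and in T1, T3 and T10 it made up 97.3%, 25.1% and 80.7%. These shares overlapped, and the difference of 13.0 points had an exact permutation p of 0.629. It was −1.84 points without T1, 34.2 without T3, 24.2 without N1, 4.64 without N9 and 6.46 without T10. *EGF* made up 34.95%, 40.7% and 68.9% of the ligand FPKM of N3, N8 and N9, but 0.331% of that of N1, and 0.516%, 0.617% and 11.4% of that of T1, T3 and T10. The *EREG* share was 71.2% in T3 and at most 4.67% elsewhere. The ligand sum was 3.04 FPKM in N1, 5.42 FPKM in N3, 8.48 FPKM in N8 and 40.8 FPKM in N9, against 7.02 FPKM in T1, 23.6 FPKM in T3 and 4.30 FPKM in T10, with an exact permutation p of 0.857. The 2 highest sums, in N9 and T3, thus belonged to different groups and to different ligands. *AREG*, *EPGN* and the neuregulins are not part of these ranks, shares and sums. In N1, *EPGN* alone, at 9.95 FPKM, was above *HBEGF* and above the sum of the 5 ligands.

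**Figure D3:**
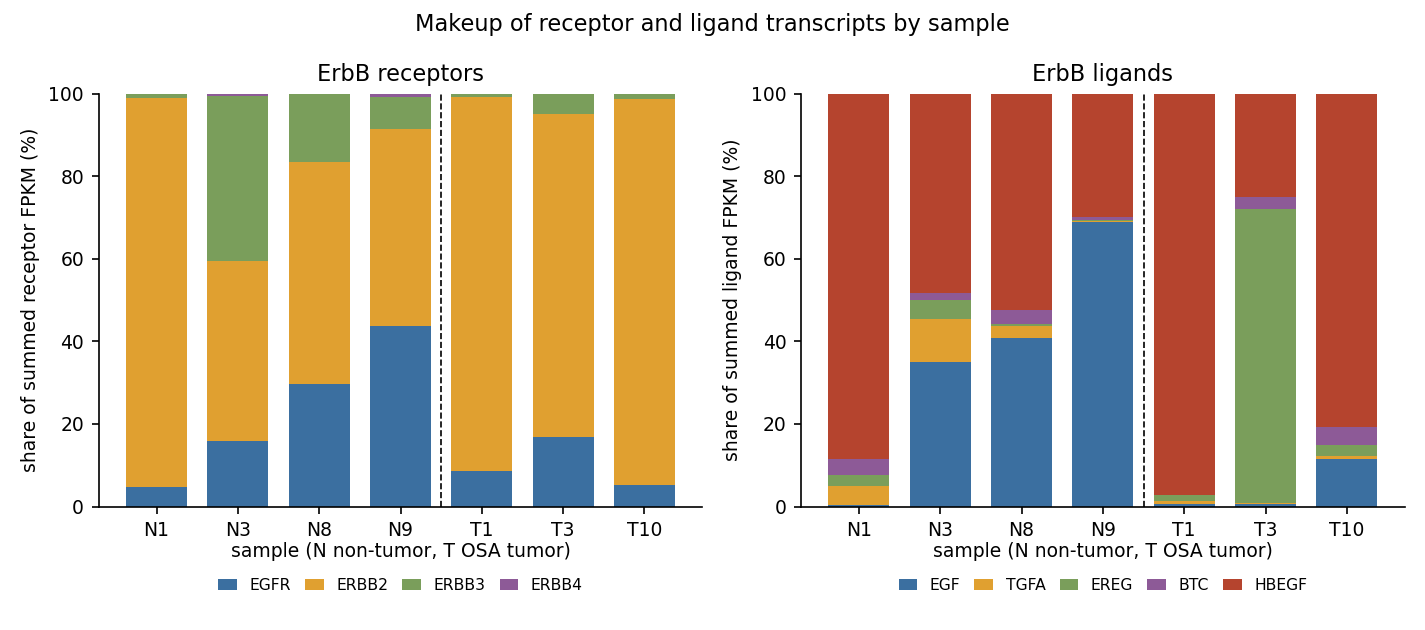
Share of the summed FPKM (percent, vertical axis) taken by each ErbB receptor (left) and each matched ligand (right) in the 7 samples, with a dashed line between non-tumor (N) and OSA tumor (T). *ERBB2* fills 78.0 to 94.1% of the receptor bar in the tumors and N1, and *EREG* fills 71.2% of the ligand bar in T3.

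The genes around the receptors were read from 5 lists with 77 symbols, of which 73 had a row and 67 were tested. Of the 67, 3 were higher and 2 lower in tumor past the threshold, or 7.46%, against 6.86% of all genes tested. Their median difference was 0.15, against −0.02 over all genes. The lowest adjusted p among them was 0.693 in limma, which was also the value for each of the 5 genes past the threshold.

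Of the other ErbB ligands, the neuregulins (ligands of ERBB3 and ERBB4) and epigen, 1 of 5 could be tested. *EPGN* (epigen, which binds EGFR) measured 9.95 FPKM in N1, 1.15 FPKM in N3, 0.570 FPKM in N9 and a listed 0 in N8, against 2.51 FPKM in T1, 0.176 FPKM in T3 and 1.82 FPKM in T10. N1 was the highest sample for this ligand, and the difference was −0.12 with an adjusted p of 0.980 in limma. Without N1 its sign turned, to 0.60 with an adjusted p of 0.694 in limma. *NRG1*, the ligand next in level and under the filter, was highest in T3, at 2.93 FPKM, and listed at 0 in N1. *NRG4* was listed at 0 in all 7 samples and *NRG3* in all but N3. These neuregulins were named after their values were seen.

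Of the 5 genes of ligand release, none passed the threshold. The differences ran from 0.00 to 0.80, with a median of 0.33 against −0.02 over all genes tested. The lowest adjusted p of the list was 0.717 in limma. *ADAM17*, the main protease that frees these ligands, measured 11.9 FPKM in N1, 9.10 FPKM in N3, 4.47 FPKM in N8 and 6.88 FPKM in N9, against 16.7 FPKM in T1, 8.57 FPKM in T3 and 19.3 FPKM in T10. T1 and T10 were above every non-tumor sample and T3 was not, and the difference of 0.80 (SE 0.50) had an adjusted p of 0.717 in limma. *FRMD8*, which binds the iRhom partners of ADAM17, differed by 0.51 with an adjusted p of 0.792 in limma.

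Of the 26 tested adaptors and signal carriers, 2 were lower past the threshold and none higher, or 7.69% against 6.86% of all genes tested. The list median was −0.18. *MAP2K2*, the kinase MEK2 upstream of ERK, measured 16.6 FPKM in N1, 23.4 FPKM in N3, 60.3 FPKM in N8 and 40.02 FPKM in N9, against 21.8 FPKM in T1, 8.57 FPKM in T3 and 3.73 FPKM in T10. T3 and T10 lay below every non-tumor sample, while T1 lay above N1. The difference was −1.67 (SE 0.66), with an unadjusted p of 0.0308 in limma, and stayed past the threshold in 3 of 7 fits that left out 1 sample. *STAT5B*, a transcription factor of the STAT route, measured 13.2 FPKM in N1, 16.3 FPKM in N3, 22.1 FPKM in N8 and 32.6 FPKM in N9, against 9.59 FPKM in T1, 7.57 FPKM in T3 and 6.67 FPKM in T10. Its groups, N1 included, did not overlap, as for 5.85% of all genes tested. The difference of −1.24 (SE 0.47), with an unadjusted p of 0.0253 in limma, also passed in 3 of 7 such fits. It did not pass when every sample was rescaled to the same FPKM sum (−1.06, unadjusted p of 0.151 in limma). *MAP2K2* did not pass with a random replicate block (−1.28, unadjusted p of 0.0570 in limma). With the fixed replicate block and without N8 and N9 together, neither gene passed: *MAP2K2* was at −0.49 and −1.04 and *STAT5B* at −0.72 and −0.82. For both genes N8 and N9 were the highest samples, and the part of muscle in these levels was not tested.

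The list of restraints on the receptors or their signal held 22 tested genes. Of these, 2 were higher past the threshold and none lower, or 9.09% against 6.86% of all genes tested. The list median was 0.26, and whether each listed gene acts as a restraint was not tested. *SPRED1*, which holds back RAS-ERK signalling, measured 10.9 FPKM in N1, 8.92 FPKM in N3, 2.72 FPKM in N8 and 8.24 FPKM in N9, against 16.9 FPKM in T1, 25.4 FPKM in T3 and 32.6 FPKM in T10. All 3 tumors were above all 4 non-tumor samples, a lack of overlap seen in 5.85% of all genes tested in either direction. The difference of 1.66 (SE 0.54), with an unadjusted p of 0.0123 in limma and an exact permutation p of 0.0571, passed in 7 of 7 fits with 1 sample left out. It was the 1 gene of the 5 to do so, but it did not pass with the sample number as a fixed replicate block (1.00, unadjusted p of 0.116 in limma) or without N8 and N9 together (1.21, unadjusted p of 0.0592 in limma). *LRIG3*, of a family of membrane proteins whose member LRIG1 promotes the breakdown of ErbB receptors, measured 10.8 FPKM in N1, 16.2 FPKM in N3, 0.808 FPKM in N8 and 2.29 FPKM in N9, against 13.4 FPKM in T1, 192 FPKM in T3 and 14.6 FPKM in T10. T1 and T10 lay within the non-tumor range, and T3, the tumor with high *EREG*, held 87.2% of the tumor sum. The difference was 2.57 (SE 1.08), with an unadjusted p of 0.0394 in limma, and passed in 4 of 7 such fits. It was 1.35 without T3, 1.88 with the fixed replicate block and 1.30 without N8 and N9 together, and did not pass in these, nor without the filter on low genes (unadjusted p of 0.0598 in limma). *LRIG1* itself, named after its values were seen, had the lowest difference of the list, −1.77 (SE 1.03) with an unadjusted p of 0.1199 in limma. It measured 1.97 FPKM in N1, 4.51 FPKM in N3, 26.8 FPKM in N8 and 45.2 FPKM in N9, against 2.33 FPKM in T1, 8.58 FPKM in T3 and 0.389 FPKM in T10. N1 and N3 lay within the tumor range, and the muscle-rich samples N8 and N9 were the highest. Without N1 the difference was −2.44 with an unadjusted p of 0.0333 in limma, past the threshold. The part of muscle in the *LRIG1* level was not tested.

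Of the 13 tested target genes of ERK signalling, 1 was higher past the threshold and none lower, or 7.69% against 6.86% of all genes tested. The list median was 0.14. *PHLDA1*, which is induced by ERK, measured 3.75 FPKM in N1, 1.47 FPKM in N3, 0.683 FPKM in N8 and 0.296 FPKM in N9, against 14.4 FPKM in T1, 6.03 FPKM in T3 and 3.67 FPKM in T10. N1 and T10 were almost level and were the point at which the groups overlapped. The difference of 1.82 (SE 0.63), with an unadjusted p of 0.0176 in limma, passed in 6 of 7 such fits. With the sample number as a fixed replicate block it was the 1 gene of the 5 still past the threshold (1.60, unadjusted p of 0.0373 in limma), but without N8 and N9 together it was not (1.22, unadjusted p of 0.154 in limma).

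**Figure D4:**
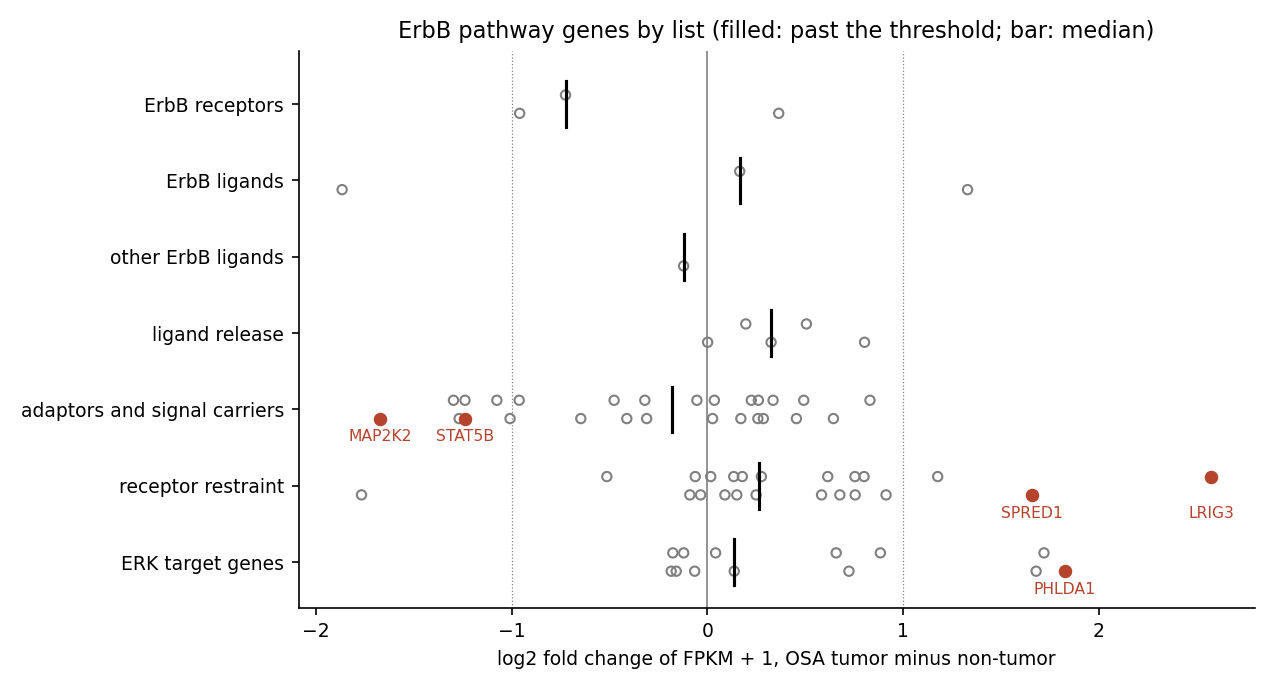
Log2 fold change of FPKM + 1 (tumor minus non-tumor, horizontal axis) of each tested gene of the ErbB receptors, the ErbB ligands and the 5 other lists; circles are genes, filled and named where past the threshold, and black bars are list medians. *MAP2K2* and *STAT5B* lie on the lower side, *SPRED1*, *LRIG3* and *PHLDA1* on the higher side, and no receptor or ligand is filled.

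The genes with the pattern most like that of each tested receptor or ligand were found by Pearson's r of log2(FPKM + 1) over the 7 samples, given as a description of samples that share the same libraries and tissue makeup. For *EGFR* these were *APOOL* (r = 0.988), *VCP* (r = 0.984) and *PTPRG* (r = 0.981), and 198 genes had an r above 0.9. For *ERBB2* they were *ZNF154* (r = 0.991), *TEAD3* (r = 0.964) and *DNAJC15* (r = 0.953), with 14 genes above 0.9. For *ERBB3* they were *CHAC2* (r = 0.987), *LUC7L2* (r = 0.986) and *PIGV* (r = 0.986), with 96 genes above 0.9. For *EGF* they were *HSPB3*, a small heat shock protein of muscle (r = 0.991), *USP53* (r = 0.991) and *F8* (r = 0.990), with 481 genes above 0.9. For *HBEGF* they were *MRPS6* (r = 0.957), *MOB3B* (r = 0.934) and *KNBC3* (r = 0.931), with 11 genes above 0.9. For *EREG* they were *FGF19*, *PNOC* and *BMP10*, each with an r of 1.00 that rests on T3, and 188 genes had an r above 0.9.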

How the data were processed

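RNA from 4 non-tumor and 3 OSA tumor samples was sequenced as paired ends from stranded libraries. Per the study's methods and the submitters' processing notes, the authors used Trim Galore for trimming and Tophat2 for alignment to CanFam3.1 with the Ensembl iGenomes annotation, and computed FPKM per gene and sample with Cufflinks/Cuffdiff (versions are not given in the sources used here). The deposited FPKM were used as they stand, with 0 per-sample columns left unused. A second deposited table holds the authors' group FPKM, log2 fold change, test statistic score, p-value and q-value. Only its gene intervals were used, with 1 added to each start.

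Genes averaging 1 FPKM or more over the 7 samples (13507 of 24580) were put on the log2(FPKM + 1) scale and fitted with limma 3.58.1 (R 4.3.3, moderated variances, mean-variance trend), and p-values were adjusted over all of them by the Benjamini-Hochberg method. The limits on fold change and p are those of the study. Permutation tests and tables were made in Python 3.11.15 with numpy 2.4.6, scipy 1.17.1 and pandas 2.3.3, and figures with matplotlib 3.10.9. The fit and the permutation test were tested on simulated data.

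FPKM are not counts, so depth, together with any normalization between libraries, was read relative to N1 from the steps between low FPKM values. In 15 of the 15 pairs without N1, the ratio read directly lay within 0.03 on the log2 scale of that read through N1, up to a whole power of 2. A low gene was given in fragments where its values up to 40 fragments lay within 0.1 of whole numbers. The number of fragments could be a multiple of the one given.

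The genes named are all 10 receptors and ligands, every gene of the pathway lists past the threshold, the 2 with the smallest p of a list with none, and the 3 genes most like each tested receptor or ligand. Other genes were named after their values were seen, namely single genes of the marker lists, the neuregulins, *LRIG1*, *EGR1* and *FOSL1*. The receptors, ligands and lists were chosen with earlier results of these data known. Alternatives were other pseudocounts, filters, scalings and weights, no trend, the sample number as a block, and single samples left out.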

Additional observations from a re-analysis of the deposited data

Results flagged for a closer look

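In 17 genes, the receptors, ligands and pathway genes named by rule, the 4 non-tumor samples were searched for 1 value far from the others, a search that flags about 1 in 20 groups by chance. *EGF* in N9, at 28.1 FPKM, stood apart: its gap to the next sample was 0.877 of the whole range, above the 95% limit of Dixon's test. *EPGN* in N1, at 9.95 FPKM, stood apart as well, with a gap of 0.885 of the range. On the log2(FPKM + 1) scale the gaps were 0.559 and 0.681 of the range, and 0 of the 17 genes passed the limit. N9 also had the highest *EGFR* and *HBEGF* levels of the non-tumor samples.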

How the results depend on the processing

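The number of genes past the threshold, 926, was 1857 with sample weights, 241 with a fixed replicate block on the sample number (samples 1 and 3 alone) and 184 without N8 and N9, an alternative added after seeing the data. It ran from 319 without N8 to 1997 without N1 when single samples were left out, with 424 without T10 and 603 without T3. Of the 6 tested receptors and ligands, 0 to 2 passed when single samples were left out, 2 without N1, and 0 under every other alternative. Of the pathway genes, 5 in the report, 10 passed with sample weights, 3 with the fixed replicate block (1 of the 5, *PHLDA1*, and 2 others, *EGR1* and *FOSL1*), 0 without N8 and N9, and 2 to 11 when single samples were left out, 11 without N1, 2 without N8 or N9 and 3 without T3. A random replicate block gave 1062 genes, 6 pathway genes and 0 receptors or ligands. The deviations of same-numbered samples correlated at 0.42 for N1 and T1 and 0.21 for N3 and T3, the highest of 12 pairs of a non-tumor and a tumor sample (the others −0.27 to 0.14). The protocol speaks of matched bone, but no label ties numbers to dogs, and 2 pairs are too few to settle the pairing from the data. The sign of *EGFR* turned with the fixed replicate block (0.53) and without N8 and N9 (0.15), that of *EREG* without T3 (−0.0063, of a range to 1.999 with single samples left out), that of *HBEGF* without N1 (−0.03) or N3 (−0.041, of a range to 0.58), and that of the *HBEGF* share without T1 (−1.84, of a range to 34.2 percentage points). *EREG* was not tested under the filter of 1 FPKM in 3 samples. With pseudocounts of 0.1 and 0.01, the *EGF* difference was −3.00 and −3.18 that of *ERBB3* −2.01 and −2.41 and that of *EREG* 2.16 and 2.61, none past the threshold. Rescaling every sample to the same FPKM sum shifted the median difference of all genes to 0.12 and gave 271 higher and 493 lower genes, 3 of them with an adjusted p under 0.05 in limma, and quantile normalization gave 519 and 389. The cause of these changes was not tested. Depth limits *ERBB4*, *TGFA* and *BTC*, at up to 20 fragments per sample in the smallest whole numbers that fit.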
